A study of Homo sapiens with 6 samples.

Results

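The genes described here are 35 genes that fold, check and dispose of proteins in the endoplasmic reticulum (ER), together with the sensors of unfolded protein. They were chosen by function, as symbols, from the 58825 genes of the deposited table, and all 35 were found and tested. By role they fall into 8 HSP70 and HSP90 chaperones with their cofactors, 2 lectin chaperones, 5 disulfide oxidoreductases, 2 secreted ER stress factors, 10 genes of ER-associated degradation (ERAD), 3 genes of the translocon and 5 sensors and transcription factors. The study sequenced poly(A) RNA of HK-2 cells, an established line of human kidney tubular epithelial cells. The Control group held 3 libraries of untreated cells, for which the labels give no time (Control 1 to 3), and the OX-LDL group held 3 libraries of cells given 25 µg/mL oxidized low-density lipoprotein for 48 h (OX-LDL 1 to 3). Per the study's methods, cells were kept in low serum before OX-LDL was added. Both groups are the same cell line, and the labels name no separate cultures for the 3 libraries of a group. The study's methods, and the legend of its figure with the sequencing, speak of independent cell experiments without tying them to single libraries. The p-values therefore measure the spread between these libraries, which may be technical.

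Proteins that enter the secretory pathway are threaded into the ER lumen through the translocon, bound by chaperones, glycosylated and joined by disulfide bonds, and those that fail are pulled back to the cytosol and degraded. When unfolded protein builds up, the sensors IRE1, PERK and ATF6 start the unfolded protein response: IRE1 splices the XBP1 mRNA into the form that encodes an active factor, PERK slows translation and raises ATF4, and ATF6 is cut into a soluble factor. ATF6 and spliced XBP1 bind the ER stress response element (ERSE) in the promoters of chaperone genes. Levels are given here as FPKM, fragments per kilobase scaled to library size, with 1 value per gene, so splicing of XBP1 could not be read. The gene length that counts and FPKM imply differed by at most 0.5% between libraries in 34 of the 35 genes and by 6.38% in DERL3. Values between genes are compared on that scale only.

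Total deposited counts per library lay between 62561347 and 76797607. The low values came in steps of 4, so they stand for about 15640337 to 19199402 read pairs. Counts of the mitochondrial genome took 5.25% to 5.69% of each library. Of 5 epithelial markers, 4 had a mean of at least 1 FPKM (KRT8, KRT18, KRT19 and EPCAM), and their list summed to 120 to 145 FPKM in Control and 174 to 224 FPKM in OX-LDL. Of 12 proximal tubule markers only GGT1 and MIOX reached that mean, and LRP2, SLC22A6 and SLC22A8 were listed at 0 everywhere, so the labelled tubular origin was not visible in these defining genes. GGT1 varied from 3.13 to 18.2 FPKM among the Control libraries. The 5 macrophage markers summed to 3.13 to 7.75 FPKM in Control and 9.19 to 14.1 FPKM in OX-LDL. Among them only CD68 reached a mean of 1 FPKM, while PTPRC and AIF1 had at most 12 counts (3 read pairs) in every library. No endothelial or fibroblast marker (5 each) reached a mean of 1 FPKM, and those lists summed to at most 0.122 and 0.966 FPKM. The part of these shifts in the results below was not tested. In bulk RNA, fewer cells of a kind and less RNA per cell cannot be told apart.

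In OX-LDL a set of abundant folding genes was upregulated by up to 1.98-fold and XBP1 and DNAJB9 were downregulated, while the main ER chaperone HSPA5 and the sensor genes did not pass the test. Of the 35 genes, 10 were higher and 2 were lower in OX-LDL when p-values of edgeR's quasi-likelihood test were adjusted over all 19510 genes tested (threshold 0.05), and 23 did not pass. The 12 genes make up 34.3% of the members, beside 15.3% of all genes tested (7.91% higher and 7.42% lower), 21.4% of tested genes averaging 1 FPKM or more and 30.4% of those with at least 10 FPKM. Since 33 members had a mean of at least 1 FPKM, with a median mean of 13.8 FPKM, the shares among well-expressed genes are the closer background, and the members' share lay near the last of them. Directions were less even: 10 of the 12 were higher, whereas 729 genes were higher and 464 lower among those with at least 10 FPKM. The median log2 fold change of the members was 0.16, and 19 members were above 0 and 16 below. Beside it stand -0.00 for all genes tested, -0.02 for those averaging 1 FPKM or more and 0.03 for those averaging 10 FPKM or more. The 3 OX-LDL libraries did not overlap the 3 Control libraries in 22 members (62.9%), beside 37.2% of all genes tested, 46.4% of those averaging 1 FPKM or more and 55% of those averaging 10 FPKM or more, so this share too lay near that of well-expressed genes. Of the 12 called members, 6 kept their calls without Control 2, OX-LDL 1 or OX-LDL 3, and HERPUD1 (without Control 2) and CANX (without OX-LDL 3) were added. No member changed by more than 1 on the log2 scale, where 2459 of the 19510 tested genes did. Few well-expressed genes did so: 635 of the 12259 averaging 1 FPKM or more and 173 of the 3925 averaging 10 FPKM or more.

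**Figure D1:**
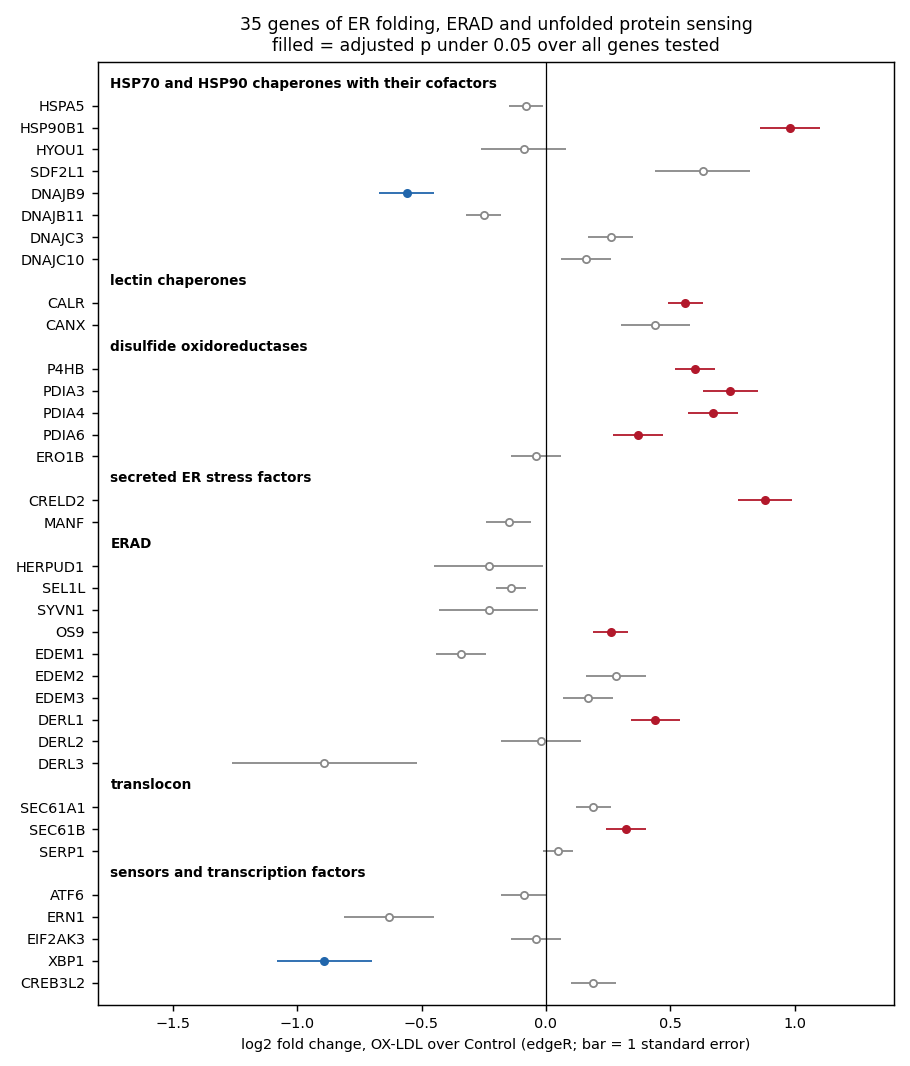
Log2 fold change of OX-LDL over Control (horizontal axis) for the 35 genes, ordered by role, with a bar of 1 standard error from edgeR; filled points passed an adjusted p-value of 0.05 over all genes tested. HSP90B1 (0.98) and CRELD2 (0.88) lie farthest right among the filled points and XBP1 (-0.89) farthest left.

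HSP90B1 (ENSG00000166598), which encodes GRP94, the HSP90 chaperone of the ER lumen, rose most. It lies on chromosome 12 of GRCh38 from 103930107 to 103947927. Its levels were 202, 155 and 190 FPKM in Control 1 to 3 and 329, 376 and 356 FPKM in OX-LDL. The lowest OX-LDL library was well above the highest Control library. The log2 fold change was 0.98 (standard error, SE, 0.12, edgeR adjusted p = 0.00478), a 1.98-fold rise. HSPA5 (ENSG00000044574; chromosome 9, 125234853 to 125241343) encodes BiP, the HSP70 chaperone of the ER that also holds the sensors inactive. Its levels were 219, 206 and 235 FPKM in Control and 200, 198 and 212 FPKM in OX-LDL, so the groups overlapped. The log2 fold change was -0.08, with an interval of 2 standard errors from -0.23 to 0.07 (edgeR adjusted p = 0.521). A change of HSPA5 as large as that of HSP90B1 lies outside this interval.

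Among the cofactors of BiP only DNAJB9 passed the test. DNAJB9 (ERdj4), a J-domain protein that hands misfolded clients to BiP and to ERAD, had 7.31, 8.38 and 7.54 FPKM in Control and 4.90, 5.48 and 4.97 FPKM in OX-LDL, with every OX-LDL library below every Control library. It fell by 0.56 on the log2 scale (SE 0.11, edgeR adjusted p = 0.0168). That call was lost without Control 2 (edgeR adjusted p = 0.0659), OX-LDL 1 (0.0662) or OX-LDL 3 (0.0666). SDF2L1, a partner of DNAJB11 in the folding complex, had 3.25, 2.73 and 3.08 FPKM in Control and 5.01, 3.68 and 5.07 FPKM in OX-LDL. Its groups did not overlap, but its adjusted p-value was 0.0753 in edgeR (log2 fold change 0.63), and 0.0377 without OX-LDL 2, its lowest OX-LDL library. DNAJB11 (ERdj3), a soluble J-domain cofactor, had a log2 fold change of -0.25 (edgeR adjusted p = 0.0598), with 28.6 to 31.2 FPKM in Control and 23.8 to 25.9 FPKM in OX-LDL. The gene TBCCD1 overlaps DNAJB11 on the opposite strand with 10.3% as many counts. DNAJC3 (p58IPK), a cofactor of BiP that can also restrain PERK, stood at 0.26 (edgeR adjusted p = 0.0918). DNAJC10 (ERdj5), a J-domain reductase, had 0.16, and HYOU1 (GRP170), the nucleotide exchange factor of BiP, had -0.09 with an SE of 0.17. Both overlapped between groups. HYOU1 was highest in OX-LDL 2 (18.6 FPKM) and near 13 FPKM in both other OX-LDL libraries, and its sign turned without Control 1 (0.02) or OX-LDL 1 (0.01).

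**Figure D2:**
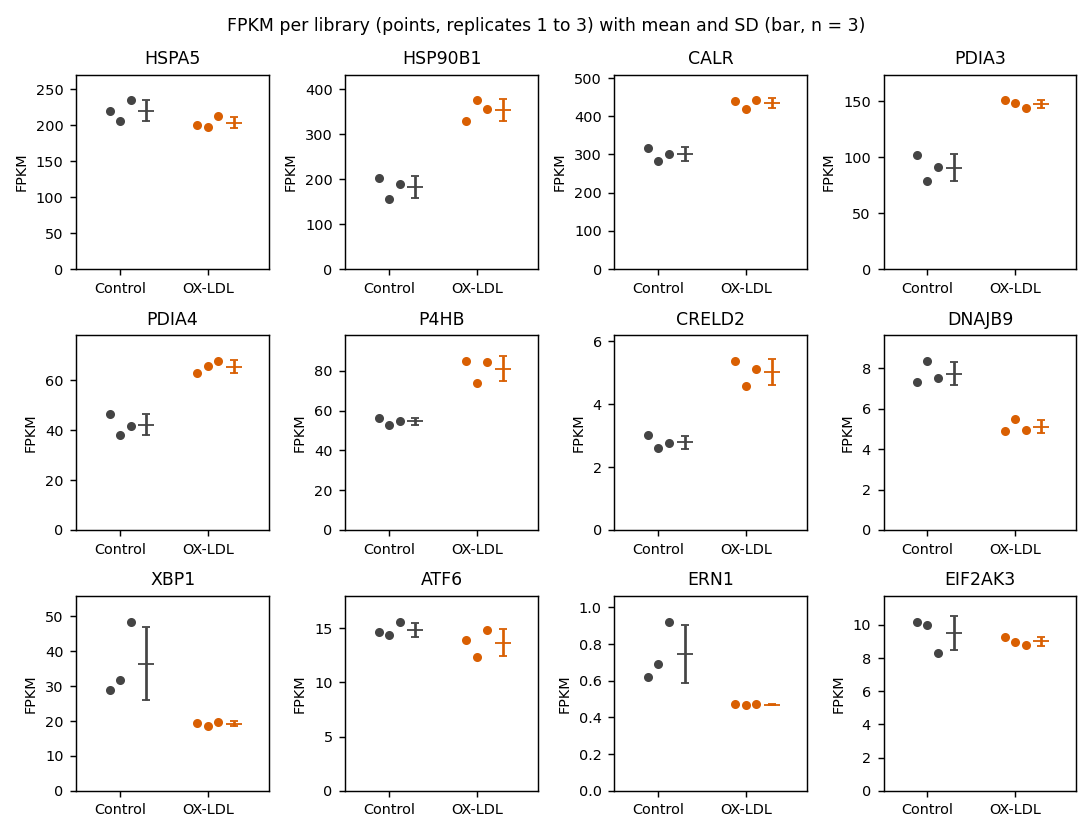
FPKM (vertical axis, from 0) of 12 of the genes in each of the 3 Control and 3 OX-LDL libraries, with the mean and SD of each group beside the points. The OX-LDL points of HSP90B1, CALR, PDIA3, PDIA4, P4HB and CRELD2 lie above the Control points, those of DNAJB9, XBP1 and ERN1 lie below, and those of HSPA5, ATF6 and EIF2AK3 overlap.

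The lectin chaperones calreticulin and calnexin hold glycoproteins while their sugar is trimmed. CALR (ENSG00000179218; chromosome 19, 12938578 to 12944489), the soluble one, had 318, 282 and 302 FPKM in Control and 440, 420 and 443 FPKM in OX-LDL, the highest level of any member in either group. The groups lay far apart, with SDs of 18.2 and 12.9 FPKM (n = 3 per group). CALR rose by 0.56 on the log2 scale (SE 0.07, edgeR adjusted p = 0.00554), or 1.48-fold. CANX, the membrane-bound one, had 89.0, 87.0 and 85.9 FPKM in Control and 135, 123 and 90.3 FPKM in OX-LDL. OX-LDL 3 was only just above Control and the other two were far above, so the spread was wide. The log2 fold change of CANX was 0.44 (SE 0.14, edgeR adjusted p = 0.0801), and without OX-LDL 3 the adjusted p-value was 0.0171. The ratio of CALR to CANX within a library overlapped between the groups.

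The oxidoreductases that make and reshuffle disulfide bonds were the role with the most calls: 4 of 5 rose (80%). Beside this stand 15.3% of all genes tested called in either direction and 30.4% of those averaging 10 FPKM or more, and 5 genes are few. The median log2 fold change was 0.60, and the 3 strongest kept their calls in all 14 alternative fits. PDIA3 (ERp57), which works with the lectin chaperones, had 102, 78.2 and 91.2 FPKM in Control and 151, 148 and 144 FPKM in OX-LDL (log2 fold change 0.74, SE 0.11, edgeR adjusted p = 0.00799). PDIA4 (ERp72) had 46.6, 38.1 and 41.8 FPKM in Control and 62.7, 65.9 and 67.8 FPKM in OX-LDL (0.67, SE 0.10, edgeR adjusted p = 0.00829). P4HB, the classical protein disulfide isomerase, had 56.3, 53.0 and 54.7 FPKM in Control and 85.1, 73.7 and 84.6 FPKM in OX-LDL (0.60, SE 0.08, edgeR adjusted p = 0.00601). In each of these genes all OX-LDL libraries were above all Control libraries. PDIA6 (P5) had 133, 110 and 123 FPKM in Control and 158, 143 and 162 FPKM in OX-LDL. It rose by 0.37 on the log2 scale (edgeR adjusted p = 0.0466), a call that was lost without Control 2 (0.115), Control 3 (0.104), OX-LDL 1 (0.122) or OX-LDL 3 (0.134). ERO1B, the oxidase that recharges the isomerases in secretory cells, was low, at a mean of 3.12 ± 0.0892 FPKM in the 3 Control libraries (SD) and 2.96 ± 0.197 FPKM in the 3 OX-LDL libraries. Its log2 fold change was -0.04, with an interval of 2 standard errors from -0.24 to 0.16. By contrast its paralogue ERO1A, not a member, rose by 0.76 (SE 0.08, edgeR adjusted p = 0.00322). The ratio of ERO1A to ERO1B was 4.50, 3.97 and 3.99 in Control and 6.76, 7.61 and 7.29 in OX-LDL. The pseudogene PDIA3P1 carried 2033 to 2384 counts in Control and 2844 to 3365 in OX-LDL, beside at least 29447 for PDIA3, and reads could have been split between this near-identical copy and PDIA3.

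Of the secreted factors, CRELD2 rose and MANF did not. CRELD2 (ENSG00000184164; chromosome 22, 49918167 to 49927540), an ER stress-inducible protein with isomerase activity, had 3.01, 2.59 and 2.76 FPKM in Control and 5.38, 4.58 and 5.13 FPKM in OX-LDL. All OX-LDL libraries were clearly higher. The log2 fold change was 0.88 (SE 0.11, edgeR adjusted p = 0.00556). ALG12 overlaps CRELD2 on the opposite strand with 79.4% as many counts, and the strand setting of the counting was not given in the sources used here, so the reads of the pair may be mixed. ALG12 itself had a log2 fold change of -0.31 (edgeR adjusted p = 0.179). MANF, a neurotrophic factor that is retained by BiP, had 15.9, 17.1 and 17.0 FPKM in Control and 13.5, 16.2 and 14.5 FPKM in OX-LDL, with overlap between groups. Its log2 fold change was -0.15 (edgeR adjusted p = 0.346). The ratio of CRELD2 to MANF within a library was 0.151 to 0.190 in Control and 0.283 to 0.398 in OX-LDL.

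In ERAD 2 of 10 genes rose and 8 did not pass. The 20% called was near the 21.4% of tested genes averaging 1 FPKM or more (15.3% of all genes tested). Of the 10 genes, 6 were fitted below 0, and the median log2 fold change was -0.08. DERL1, a derlin that forms part of the channel out of the ER, had 9.89, 8.54 and 10.5 FPKM in Control and 13.1, 12 and 13.2 FPKM in OX-LDL. The groups did not overlap, and the log2 fold change was 0.44 (SE 0.10, edgeR adjusted p = 0.0322). Its adjusted p-value was 0.0696 without Control 1, 0.0752 without Control 2, 0.0943 without OX-LDL 1 and 0.105 without OX-LDL 3. The gene TBC1D31 overlaps it on the other strand with 29.7% as many counts. OS9, the lectin that delivers trimmed glycoproteins to the ubiquitin ligase, had 22.4, 23.3 and 23.1 FPKM in Control and 28, 27.2 and 25.1 FPKM in OX-LDL. Its rise was small and close to the threshold (log2 fold change 0.26, edgeR adjusted p = 0.0458), and leaving out any 1 library ended the call. The values were 0.115, 0.123 and 0.0985 without Control 1, 2 and 3, and 0.137, 0.0754 and 0.0760 without OX-LDL 1, 2 and 3.

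The 8 other ERAD genes lay on both sides of 0. SEL1L, the scaffold of the ligase complex, had a log2 fold change of -0.14 with an SE of only 0.06 (edgeR adjusted p = 0.195), and its OX-LDL libraries (12.4 to 13.1 FPKM) were all below Control (14.0 to 14.7 FPKM). SYVN1 (HRD1), the ubiquitin ligase itself, had 3.36, 3.16 and 2.74 FPKM in Control and 1.91, 2.66 and 3.12 FPKM in OX-LDL, with overlap. SYVN1 shares its locus with FAU on the same strand and MRPL49 on the opposite strand, each with more counts than SYVN1, so its value is uncertain. HERPUD1, a membrane protein that recruits the ligase complex, had 12.6, 6.83 and 11.3 FPKM in Control and 8.43, 8.48 and 8.83 FPKM in OX-LDL. Control 2 stood below every other library of HERPUD1. The log2 fold change was -0.23 (edgeR adjusted p = 0.547), and -0.45 without Control 2 (edgeR adjusted p = 0.0498). The EDEM proteins trim mannose from misfolded glycoproteins, and none of their genes passed the test. EDEM1 had 9.90, 9.65 and 10.4 FPKM in Control and 7.23, 8.85 and 7.12 FPKM in OX-LDL, without overlap (log2 fold change -0.34, edgeR adjusted p = 0.0773). Without OX-LDL 2, its highest OX-LDL library, the adjusted p-value of EDEM1 was 0.0184. EDEM2 stood at 0.28 (edgeR adjusted p = 0.161) and EDEM3 at 0.17 (edgeR adjusted p = 0.289). DERL2 overlapped fully (log2 fold change -0.02, SE 0.16), and its sign turned without Control 1 (0.11) or OX-LDL 3 (0.08). DERL3, the third derlin, was the least expressed member with counts of 57, 46 and 53 in Control and of 19, 39 and 24 in OX-LDL. Its log2 fold change of -0.89 had an SE of 0.37 (edgeR adjusted p = 0.161), and SMARCB1, which overlaps it on the opposite strand, had 4451 counts on average.

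Among the translocon genes, SEC61B, the small subunit of the channel, had 26.0, 27.1 and 26.6 FPKM in Control and 34.8, 30.6 and 31.7 FPKM in OX-LDL, with no overlap. It rose by 0.32 on the log2 scale (SE 0.08, edgeR adjusted p = 0.0402). The call was lost without Control 1 (edgeR adjusted p = 0.0980), Control 2 (0.114), Control 3 (0.0932), OX-LDL 1 (0.121) or OX-LDL 3 (0.110). SEC61A1, the pore-forming subunit, had 86.0, 86.5 and 80.3 FPKM in Control and 98.5, 86.8 and 95.8 FPKM in OX-LDL. Its second OX-LDL library barely cleared Control, and its log2 fold change was 0.19 (edgeR adjusted p = 0.136). The ratio of SEC61B to SEC61A1 overlapped between the groups. SERP1 (RAMP4), which associates with the channel under stress, had 27.8 to 29.3 FPKM in Control and 28.6 to 29.7 FPKM in OX-LDL, the smallest interval of any member (-0.07 to 0.17 on the log2 scale). On the opposite strand RUVBL1 overlaps SEC61A1 with 26.5% as many counts, and EIF2A and SELENOT overlap SERP1 with 66.7% and 70.2% as many.

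None of the genes for the sensors passed the test. ATF6 had 14.6, 14.4 and 15.6 FPKM in Control and 13.9, 12.3 and 14.8 FPKM in OX-LDL, with overlap (log2 fold change -0.09, interval of 2 standard errors -0.27 to 0.09). EIF2AK3, which encodes PERK, had 10.2, 9.99 and 8.32 FPKM in Control and 9.30, 8.99 and 8.77 FPKM in OX-LDL, also with overlap (-0.04, interval -0.23 to 0.15, sign turned to 0.02 without Control 1). ERN1, which encodes IRE1, was low, at 0.621, 0.691 and 0.922 FPKM in Control and 0.472, 0.466 and 0.471 FPKM in OX-LDL. All OX-LDL libraries of ERN1 were below Control, while its adjusted p-value was 0.0586 in edgeR (log2 fold change -0.63, SE 0.18) and 0.0111 in DESeq2. These are mRNA levels, and the activity of the sensors was not measured.

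Of the transcription factors, XBP1 fell. XBP1 (ENSG00000100219; chromosome 22, 28794555 to 28800597) had 29, 31.8 and 48.5 FPKM in Control and 19.4, 18.6 and 19.8 FPKM in OX-LDL. Control 3 was far above both other Control libraries, but each Control library was above each OX-LDL library. The log2 fold change was -0.89 (SE 0.19, edgeR adjusted p = 0.0250), and -0.63 without Control 3 (edgeR adjusted p = 0.0127). The call was lost without Control 2 (0.0521), OX-LDL 1 (0.0836), OX-LDL 2 (0.0619) or OX-LDL 3 (0.0802), with log2 fold changes from -0.98 to -0.86. By level, XBP1 went from rank 10 among the 35 genes in Control to rank 14 in OX-LDL. CREB3L2, a membrane-bound factor related to ATF6, had 4.93, 5.14 and 5.02 FPKM in Control and 6.17, 4.98 and 5.69 FPKM in OX-LDL, with overlap (0.19, edgeR adjusted p = 0.219).

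Ratios within a library remove any shared scaling. They are given as values, with no test, and an exact permutation test of 3 against 3 libraries could not give a p-value under 0.1. HSP90B1 to HSPA5, a pair of lumenal chaperones, was 0.925, 0.754 and 0.811 in Control and 1.64, 1.9 and 1.68 in OX-LDL, so HSP90B1 was the lower of the pair in every Control library and the higher in every OX-LDL library on the FPKM scale. Counts over FPKM imply a length of 4693 bases for HSP90B1 in the authors' table, beside 3032 bases for its longest annotated transcript, so which of the pair is higher depends on that length, while the change between groups does not. CALR to HSPA5 was 1.28 to 1.45 in Control and 2.10 to 2.19 in OX-LDL. HSP90B1 to XBP1 was 6.98, 4.87 and 3.93 in Control and 17.0, 20.2 and 18.0 in OX-LDL, and the lowest OX-LDL ratio was 2.43 times the highest Control ratio. By contrast XBP1 to HSPA5 was 0.132 to 0.206 in Control and 0.0937 to 0.0968 in OX-LDL. The ratios restate the levels above and add no replicate.

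**Figure D3:**
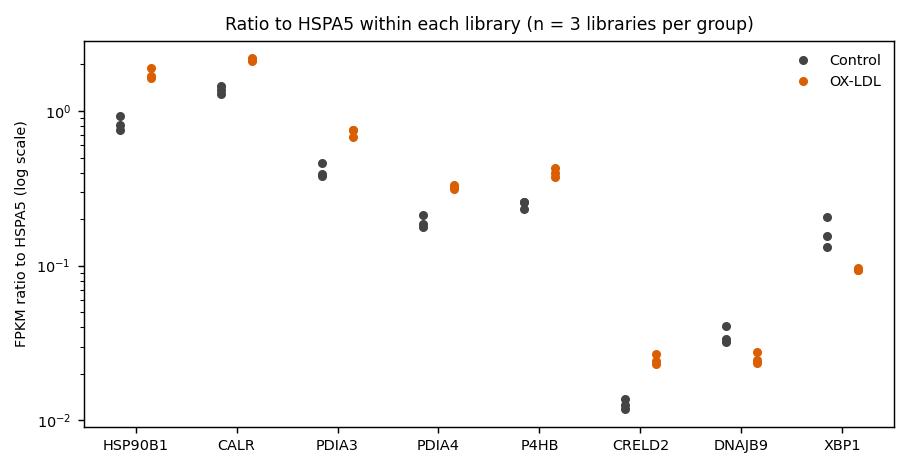
FPKM of 8 genes divided by that of HSPA5 in the same library (vertical axis, log scale), for 3 Control and 3 OX-LDL libraries. In 6 genes the OX-LDL ratios lie above the Control ratios, from HSP90B1 (1.64 to 1.9 beside 0.754 to 0.925) to CRELD2, and in DNAJB9 and XBP1 they lie below.

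Summed over the 35 genes, FPKM was 1562, 1400 and 1528 in Control and 1958, 1932 and 1955 in OX-LDL, and the ratio of group means was 1.3. Most of the difference came from HSP90B1 and CALR. By role the ratio was 1.45 for the oxidoreductases, 1.42 for the lectin chaperones, 1.31 for the HSP70 and HSP90 chaperones with their cofactors and 1.11 for the translocon. It was 1.03 for ERAD, 1.01 for the secreted factors and 0.722 for the sensors and transcription factors, the last of which rests mostly on XBP1.

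The ERSE is shown because ATF6 and spliced XBP1 are known to bind it in chaperone promoters, though binding was not measured here. Its carriers among the members ranged in log2 fold change from -0.89 (XBP1) to 0.98 (HSP90B1), and differences between them were not tested. The element was searched as CCAAT and CCACG with 9 free bases between them, on both strands. The RefSeq windows of GRCh38.p14 ran from 250 bases before to 50 bases after each start. They exist for 32 of the 35 genes (not PDIA3, DERL1 and DERL3). Exact letters stood in 9 of the 32 genes (28.1%) and in 25 of all 27305 genes with a window (0.0916%). The members were chosen in part as chaperones of the ATF6 and XBP1 branches. Their higher share therefore follows from that choice and is not a result of these data. The elements follow, 5′ to 3′ in the direction of the motif, with its fixed letters in capitals and the free letters in lower case. First come the 4 genes that rose, among which HSP90B1 holds 2 copies.
HSP90B1, chr12:103930216-103930234, plus strand: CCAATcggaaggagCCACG
HSP90B1, chr12:103930321-103930339, minus strand: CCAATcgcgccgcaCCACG
CALR, chr19:12938384-12938402, minus strand: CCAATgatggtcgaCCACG
PDIA6, chr2:10812853-10812871, minus strand: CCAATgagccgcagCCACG
CRELD2, chr22:49918554-49918572, minus strand: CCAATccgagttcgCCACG
Next are XBP1, which fell, and the 4 genes that did not pass the test.
XBP1, chr22:28800603-28800621, minus strand: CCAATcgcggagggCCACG
HSPA5, chr9:125241391-125241409, minus strand: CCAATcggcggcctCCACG
CANX, chr5:179698778-179698796, plus strand: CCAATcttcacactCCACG
ERO1B, chr1:236282183-236282201, plus strand: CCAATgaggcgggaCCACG
SERP1, chr3:150546710-150546728, plus strand: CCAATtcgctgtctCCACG
Counted from the RefSeq start of the window, the 2 copies of HSP90B1 end 176 and 71 bases before it, that of HSPA5 48 bases and that of XBP1 34 bases. RefSeq starts can differ from the gene ends in the deposited table. The elements of HSP90B1, PDIA6, CRELD2, CANX and SERP1 lie inside the gene as that table places it. A match says only that these letters are in the window. The median log2 fold change of the 9 genes was 0.37. Of them 4 were called higher and 1 lower, and 9 genes are few. Calls in either direction took 15.3% of all genes tested, 21.4% of those averaging 1 FPKM or more and 30.4% of those averaging 10 FPKM or more. The groups above follow the threshold only: PDIA6, which was called, had 0.37 and CANX, which was not, had 0.44. Of the 16 other genes with the element, 7 were tested: FICD, which encodes the enzyme that attaches AMP to BiP, fell (log2 fold change -0.67, edgeR adjusted p = 0.0263), and 6 did not pass, 2 of which share a window with a member (ALG12 with CRELD2 and EIF2A with SERP1). A further 6 were under the minimum level and 3 could not be matched to the table.

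The promoters of HSPA5 and XBP1 are given because both hold the same fixed letters close to the start while only XBP1 fell. Both stretches are from RefSeq (GRCh38.p14), on the minus strand, written 5′ to 3′ up to the base before the gene as the deposited table places it, with the fixed letters of the exact ERSE in capitals.
HSPA5: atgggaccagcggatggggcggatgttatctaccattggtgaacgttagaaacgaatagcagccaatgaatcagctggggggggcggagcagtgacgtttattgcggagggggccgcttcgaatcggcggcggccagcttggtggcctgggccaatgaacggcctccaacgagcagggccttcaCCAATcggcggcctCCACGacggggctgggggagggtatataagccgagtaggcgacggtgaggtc
XBP1: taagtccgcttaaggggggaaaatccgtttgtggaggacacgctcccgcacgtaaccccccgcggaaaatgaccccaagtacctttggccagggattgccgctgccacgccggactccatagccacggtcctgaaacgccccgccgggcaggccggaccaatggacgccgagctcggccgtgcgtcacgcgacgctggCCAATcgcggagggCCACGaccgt
The HSPA5 stretch covers chr9:125241344-125241593 and the XBP1 stretch chr22:28800598-28800819. The XBP1 stretch stops before the RefSeq start, because the deposited table places that gene's end farther upstream.

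The other motifs were rarer among members. ERSE-II (ATTGG and CCACG with 1 free base between them) stood in 3 of the 32 windows (9.38%, beside 0.0696% of all genes with a window). Because the members were chosen by function, this share is not a result of these data either. All 3 carriers missed the threshold in edgeR, as did 16519 of the 19510 genes tested and 9641 of the 12259 averaging 1 FPKM or more. In DESeq2 SDF2L1 passed (adjusted p = 0.0207), whereas HYOU1 (0.818) and HERPUD1 (0.578) did not. The elements follow.
HYOU1, chr11:119057380-119057390, plus strand: ATTGGaCCACG
HYOU1, chr11:119057274-119057284, plus strand: ATTGGaCCACG
SDF2L1, chr22:21642114-21642124, minus strand: ATTGGtCCACG
HERPUD1, chr16:56932025-56932035, plus strand: ATTGGgCCACG
The XBP1 site TGACGTGG (UPRE) was found in HYOU1, where it overlaps ERSE-II, and in DNAJC10, and in 0.927% of all genes with a window. The amino acid response element TGATGNAAN (CARE), to which ATF4 binds, was found in HERPUD1 and CREB3L2, beside 4.45% of all. The window of DNAJB9, which fell, holds none of these letters, and no match says only that they are not in this window.

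Genes of the same pathways outside the 35 were taken from 5 lists, all with a mean of at least 1 FPKM. As background, 15.3% of all genes tested were called, 21.4% of those averaging 1 FPKM or more and 30.4% of those averaging 10 FPKM or more. Of 16 other genes of ER protein folding, 5 rose and 2 fell (43.8% called, median log2 fold change 0.19). ERO1A, the general oxidase of the isomerases, rose by 0.76, ERP44, which retains it in the early secretory pathway, by 0.44 and the isomerase TXNDC5 by 0.34, whereas the J-domain protein DNAJC1 fell by 0.71. The number of calls in that list went from 7 to 4 without Control 1, 3 without Control 2 or OX-LDL 1 and 2 without OX-LDL 3, ERP44 being lost without OX-LDL 3 (edgeR adjusted p = 0.0513) and TXNDC5 without Control 2 (0.0550), OX-LDL 1 (0.0538) or OX-LDL 3 (0.0534).

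Among 19 other ERAD genes 4 rose and 1 fell (26.3% called, median 0.11). That share lay between those of tested genes averaging at least 1 FPKM (21.4%) and at least 10 FPKM (30.4%). VCP, the ATPase that pulls proteins out of the ER membrane, rose from a mean of 47.5 FPKM (SD 3.52, n = 3) to 96.2 FPKM (SD 2.13, n = 3) (log2 fold change 1.05, edgeR adjusted p = 0.00125), more than any ERAD member. UBXN4, which anchors VCP at the ER, rose by 0.43. ERLEC1, a lectin related to OS9, rose by 0.49 and the ubiquitin ligase RNF5 fell by 0.39 on the log2 scale, but with 1 library left out both calls held only without OX-LDL 2 (ERLEC1 0.0545 to 0.0863 and RNF5 0.0592 to 0.145 in the other 5 fits). The calls in this list went from 5 to 3 without Control 1 and to 2 without Control 2 or 3 or OX-LDL 1 or 3.

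Of 18 genes of translocation and glycosylation, 3 rose and 1 fell (22.2% called, median 0.14). That share was near the 21.4% of tested genes averaging 1 FPKM or more. SPCS3, a subunit of the signal peptidase, rose from a mean of 28.1 FPKM (SD 2.97, n = 3) to 57.8 FPKM (SD 1.48, n = 3) (log2 fold change 1.07, edgeR adjusted p = 0.00191). SEC61G, the third subunit of the channel, rose by 0.87, beside log2 fold changes of 0.32 for SEC61B and 0.19 for SEC61A1, and the difference between the subunits was not tested. The call of SEC61G was lost without Control 1 (edgeR adjusted p = 0.0532), Control 2 (0.0670), OX-LDL 1 (0.0603) or OX-LDL 3 (0.0581). SEC62, a receptor for post-translational import, fell by 0.38 and TRAM1, which helps chains into the membrane, rose by 0.52, both with calls that were lost in 4 or 5 of the 6 fits with 1 library left out: SEC62 without Control 2 (0.0726) or 3 (0.0537) or OX-LDL 1 (0.0690) or 3 (0.0758), and TRAM1 in all but that without Control 1 (0.0866 to 0.146). The list held 4 calls in all, and 2 without Control 3 and 1 without Control 2 or OX-LDL 1 or 3.

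Of 8 genes for ATF6 processing and related factors, 2 rose (25%, beside 21.4% of tested genes averaging 1 FPKM or more). They were CREB3L1, a membrane-bound factor of secretory cells (log2 fold change 0.59, edgeR adjusted p = 0.0136, 0.0543 without OX-LDL 1), and CREB3 (0.31, edgeR adjusted p = 0.0490, 0.0567 to 0.143 with any 1 library left out). NFYC, a subunit of the factor that binds CCAAT, had -0.33 (edgeR adjusted p = 0.0557), and MBTPS2, a protease that cuts ATF6, had 0.29 (edgeR adjusted p = 0.101, 0.0441 without OX-LDL 2). In the PERK and ATF4 branch, 9 of 10 genes fell (90% called), and 9 passed in each of the 14 alternative fits, with a median log2 fold change of -1.88. The name is that of the list. The PERK gene EIF2AK3 had -0.04, and whether PERK had a part in this fall was not tested. ASNS, which makes asparagine, fell from a mean of 40.6 FPKM (SD 0.982, n = 3) to 4.55 FPKM (SD 1.13, n = 3), a log2 fold change of -3.13. CHAC1, which degrades glutathione, had -2.57, TRIB3, a pseudokinase that feeds back on ATF4, had -2.39, and SESN2, a stress-inducible brake on mTORC1, had -1.67. The remaining gene, VLDLR, did not pass (0.21).

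**Figure D4:**
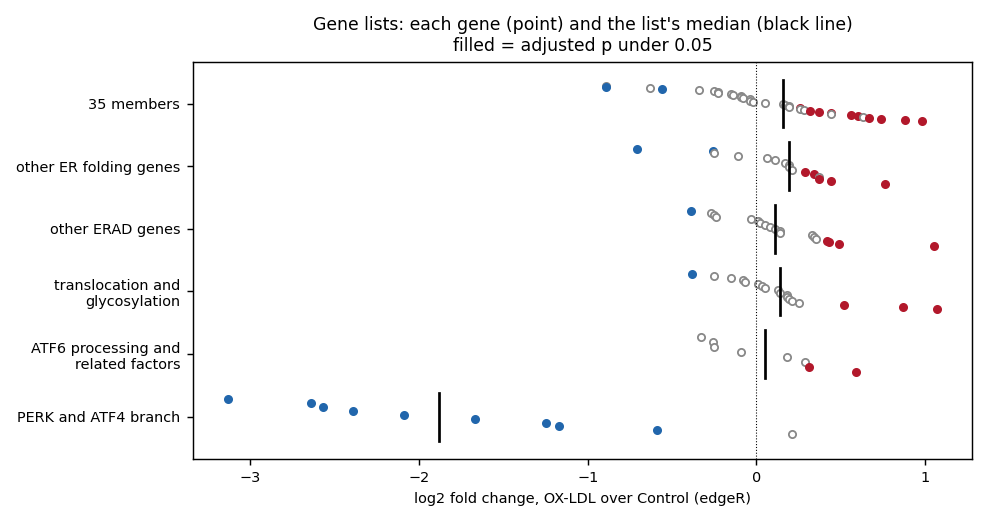
Log2 fold change of OX-LDL over Control from edgeR (horizontal axis) for each gene (points) of the 35 members and 5 further lists, with the median of each list as a black line; filled points passed an adjusted p-value of 0.05. The medians lie between 0.05 and 0.19 in the members and 4 of the lists, and at -1.88 in the PERK and ATF4 branch.

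Of the 12 calls among members, 6 held in every fit tried, namely HSP90B1, CALR, P4HB, PDIA3, PDIA4 and CRELD2. With 1 library left out, the log2 fold change of each stayed within a narrow range, 0.87 to 1.07 for HSP90B1, 0.51 to 0.61 for CALR and 0.82 to 0.95 for CRELD2. DESeq2 called 5 further members, of which SDF2L1 and CANX were higher and DNAJB11, EDEM1 and ERN1 were lower. No member that passed the test changed sign in any fit.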

How the data were processed

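The 35 genes and the 5 further lists were chosen by function, with earlier results of these data known. Per the labels, libraries were poly(A)-selected, dUTP-stranded and sequenced as pairs, and the submitters' processing notes name cutadapt 1.9, HISAT2 2.0.4, StringTie 1.3.4d, edgeR, DESeq2 and GRCh38. The table deposited by the authors holds estimated counts, which are whole numbers in steps of about 4 per read pair, and FPKM per gene. Dividing one by the other gave a gene length that differed by at most 0.5% between libraries in 34 of the 35 members (6.38% in DERL3), and 91.9% of values of single-transcript genes lay within 5% of the annotated length.

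Genes averaging 0.1 FPKM or more across all 6 libraries entered edgeR 4.0.16 (TMM scaling, quasi-likelihood test, group as the only term) on the counts, with Benjamini-Hochberg adjustment over all 19510 genes and a threshold of 0.05. Standard errors are the log2 fold change over the square root of F. All 35 members are named, and from each further list the 4 genes with the smallest p-values, VLDLR being named as the only gene of its list that did not pass; the motifs were fixed with the lists. Script checks were run on simulated counts. DESeq2 1.42.0, limma 3.58.1 on log2(FPKM + 0.1) and log2(FPKM + 1), other scalings, other minimum levels, a replicate block and 6 fits with 1 library left out were the 14 alternatives. Between libraries of a group the counts differed by 14.9 to 25.7 chi-square units per gene at 4 counts per read pair, so none was the same library sequenced again. Whether they came from the same culture or the same RNA cannot be told from this. FICD, ALG12 and EIF2A, and the promoters printed, were picked after values were seen.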

Additional observations from a re-analysis of the deposited data

How the results depend on the processing

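Of 488 values of the members under the alternatives, 434 kept their direction and side of the threshold, 36 lost a call, 12 gained one and 6 turned sign, all 6 in genes without a call: HYOU1 (0.02 when Control replicate 1 was left out, 0.01 for OX-LDL replicate 1, range -0.28 to 0.02), ERO1B (0.01 without OX-LDL replicate 2, range -0.08 to 0.01), DERL2 (0.11 for Control replicate 1, 0.08 for OX-LDL replicate 3, range -0.14 to 0.11) and EIF2AK3 (0.02 without Control replicate 1, range -0.13 to 0.02). Leaving out 1 library gave between 6 and 12 called members, of which 6 to 10 were among the 12, and brought those higher from 10 to between 6 and 10, those lower from 2 to between 0 and 2, the median log2 fold change from 0.16 to between 0.11 and 0.14, and the 2991 calls over all genes to between 1161 and 2943. DESeq2 called 5 members lower. With a replicate block 9 members were called (OS9, PDIA6 and SEC61B were lost), and 1636 of all genes. The deviations of same-numbered libraries correlated at -0.041, -0.003 and 0.036, and not every library correlated best with its own number. No pairing by number was visible in these values, which cannot tell how the cultures were set up. The other scalings moved the median of all genes by at most 0.022. At these depths, DERL3 rests on few read pairs (19 to 57 counts), and interval width for genes such as HERPUD1 and SYVN1 was set by the spread between libraries.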
